A study of Mus musculus with 9 samples.

Results

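The heat shock proteins and J-domain cochaperones of mouse bone marrow-derived mast cells (BMMCs) were followed through antigen stimulation and luteolin treatment. The group was chosen by gene symbol alone. It comprised the protein-coding genes named Hspa or Hspb with a number, Hsp90aa1, Hsp90ab1, Hsp90b1, Hspd1, Hspe1, Hsph1, the heat shock factors Hsf1 and Hsf2, and the Dnaja, Dnajb and Dnajc genes, which gave 73 genes of the 47643 listed. RNA was sequenced from 9 libraries in 3 groups of 3, labelled Control, IgE+BSA and IgE+BSA+Luteolin, and called here Control, BSA and BSA + luteolin. All cells were grown from bone marrow of C57BL/6 mice in medium conditioned by WEHI-3 cells, a source of IL-3, and the study describes the cultures as highly pure for the mast cell receptors c-kit and FcεRI. In the BSA group the cells carried IgE against dinitrophenyl (DNP) and met the antigen DNP-BSA. The third group also received luteolin, a plant flavone, for which the labels give 10 μM and 24 h. The same treatment text stands on the labels of all groups, and the sources do not agree on whether luteolin came before or after the antigen, so the comparison of BSA + luteolin with BSA covers luteolin in either order.

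Chaperones bind unfolded stretches of proteins and release them for folding. HSP70 proteins do this in a cycle driven by ATP, and J-domain proteins deliver the client and start ATP hydrolysis, so that each J-domain protein directs an HSP70 to a task or a place. HSP90 acts later on kinases and receptors, HSP110 proteins exchange the nucleotide of HSP70, and each compartment has its own set: Hspa8 and the inducible Hspa1a and Hspa1b in the cytosol and nucleus, Hspa5 (BiP) and Hsp90b1 (Grp94) in the endoplasmic reticulum (ER), and Hspa9 (mortalin) with Hspd1 and Hspe1 (the HSP60 and HSP10 chaperonin) in mitochondria. Heat shock factors drive the inducible cytosolic genes, while the unfolded protein response drives the ER genes. Mast cells make and store large amounts of secretory protein.

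Of the 73 genes, 55 had a median above 1 CPM (counts scaled to a fixed library total) over the 9 libraries and were tested, 37 of them J-domain genes. The other 18 were too low. Hspa12a, Hspb3, Dnajc22, Dnajc5b and Dnajc5g had 0 counts in every library, and Hspa1a, Hspa1l, Hspa12b, Hspb1, Hspb2, Hspb7, Hspb8, Hspb9, Dnajb3, Dnajb7, Dnajb8, Dnajb13 and Dnajc28 had at most 39 counts in any library. Values below are CPM scaled by TMM factors, with the SD over the 3 libraries of a group. Levels are compared between genes only as CPM per kilobase of exon.

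Depth was 9515004 counts in Control replicate 2 and 20125034 to 24605689 in the other 8 libraries, so that 3 counts stood for 0.122 to 0.315 CPM, a limit that covers counting error only. Control replicate 1 stood apart. For 44 of the 55 tested genes it lay nearer to the BSA + luteolin mean than to the mean of the other 2 Control libraries, and its root mean square log2 distance to them over these genes was 0.504 and 0.488, against 0.171 between Control replicates 2 and 3, 0.124 to 0.225 within BSA and 0.149 to 0.163 within BSA + luteolin. The mast cell markers (11 of 11 found) summed to 86300 CPM in Control replicate 1 and to 59400 and 59800 in Control replicates 2 and 3, against 63600 to 69800 in BSA and 74400 to 85200 in BSA + luteolin. The neutrophil markers (6 of 6 found, led by S100a9, none at 0 in all libraries) summed to 259 CPM in Control replicate 1 and to 7.08 and 5.33 in Control replicates 2 and 3, against 184 to 206 in BSA and 215 to 252 in BSA + luteolin. The basophil markers (2 of 2) summed to 1190 CPM in Control replicate 1 and to 673 and 631 in the others, against 807 to 890 in BSA and 910 to 1030 in BSA + luteolin, and the macrophage markers (6 of 6) to 211 to 216 in Control, 238 to 260 in BSA and 250 to 271 in BSA + luteolin. Over all libraries the erythroid markers (4 of 4) summed to 61.5 to 117 CPM, those of platelets (3 of 3) to 7.89 to 17.3, and those of T cells (3 of 3, Cd3e at 0) and B cells (3 of 3, Ms4a1 at 0) to at most 0.401 and 0.776. Whether this library is mixed up with another cannot be settled from the labels, so that every Control mean and every comparison with all 3 Control libraries rests on its label. The comparisons with Control are therefore given with and without it. The part of other cell types in the values was not tested, and in such bulk RNA fewer cells of a type and less RNA per cell cannot be told apart. The labels name 3 samples a group but not separate cultures or mice, so that p-values measure the spread between these samples, which may be technical.

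The cytosolic HSP90 gene Hsp90ab1 had the highest level per exon length, at a mean of 812.5 CPM per kb over the 9 libraries, followed by Hspa8 at 506 and Hsp90aa1 at 203.3 in the cytosol. In the ER the order was Hspa5 at 380.9, Hsp90b1 at 225.1 and Dnajb11, a J-domain partner of BiP, at 77.45 CPM per kb. In mitochondria it was Hspa9 at 113, Hspd1 at 109.4 and Hspe1 at 63.09 CPM per kb. The constitutive gene Hspa8 held 97.94% to 98.98% of the summed level per kb of Hspa1a, Hspa1b, Hspa1l, Hspa2 and Hspa8 in every library. This share leaves out any reads lost because Hspa1a and Hspa1b are nearly identical. All 73 genes together took 1.09% ± 0.148 of the counts in Control, 1.3% ± 0.0446 in BSA and 1.24% ± 0.00646 in BSA + luteolin (SD, n = 3).

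Promoter sequences are shown for genes on which the comparisons below turn, from RefSeq on GRCm38.p6, as stretches before an annotated transcription start and on the strand of the gene, cut to the site itself where GENCODE annotates a UTR. Windows of 300 bases, 250 before and 50 after a start, were found for 58 of the 73 genes and were searched on both strands for 11 motifs. Some genes, such as Dnaja1, had several windows and were counted where any of them matched. Shares of genes and shares of windows are therefore not alike. Heat shock factors bind inverted repeats of the unit GAA. The run of 3 such units searched here, GAA, TTC and GAA with any 2 bases between them, occurred in the windows of Dnajb6, Hspd1, Hspe1 and Hsph1, and in 0.603% of all 32851 windows. The run of 4 units, which starts with a further TTC and contains the run of 3, occurred in 0.0152% of all windows and in the shared, divergent promoter of Hspd1 and Hspe1. The pair GAANNTTC alone occurred in 14 of the 58 genes, among them Hspa1a, Hspa1b, Dnaja1 and Dnaja4, and in 7.86% of all windows, and the pair TTCNNGAA in 6 of the 58 genes, the ER gene Dnajc10 included, and in 8.52% of all windows. Both pairs overlap the longer runs. Capitals mark the heat shock motif found:
Dnajb6 site (chr5:29735844-29735872, plus strand, before a RefSeq start that lies inside the GENCODE gene, in an annotated UTR): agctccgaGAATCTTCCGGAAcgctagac
Hspa1b promoter (chr17:34959305-34959372, minus strand): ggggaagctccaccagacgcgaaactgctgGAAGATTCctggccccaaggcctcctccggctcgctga
Hspd1 site (chr1:55088053-55088082, minus strand, before a RefSeq start that lies inside the GENCODE gene, in an annotated UTR): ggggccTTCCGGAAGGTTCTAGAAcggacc
Dnajb4 promoter (chr3:152193846-152193889, minus strand, before a RefSeq start that lies inside the GENCODE gene): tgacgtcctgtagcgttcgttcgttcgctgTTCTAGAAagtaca
Dnajb1 promoter (chr8:83608025-83608174, plus strand, with none of the 11 motifs in its window and so no capitals): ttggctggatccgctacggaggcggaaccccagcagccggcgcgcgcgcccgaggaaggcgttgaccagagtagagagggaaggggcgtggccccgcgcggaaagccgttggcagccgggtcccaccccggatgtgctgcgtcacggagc

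Of the 14 ER genes, 3 carried another motif. The ER stress element, CCAAT and CCACG with any 9 bases between them, is bound by factors of the unfolded protein response. It occurred in the windows of Hspa5, Hsp90b1 and Dnajc3 and in 0.119% of all windows, with 2 matches in Hsp90b1, the later of them on the other strand. Capitals mark it in these stretches:
Hspa5 site (chr2:34772020-34772048, plus strand, before a RefSeq start that lies inside the GENCODE gene, in an annotated UTR): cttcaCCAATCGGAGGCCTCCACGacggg
Hsp90b1 promoter (chr10:86705510-86705681, minus strand, before a RefSeq start that lies inside the GENCODE gene): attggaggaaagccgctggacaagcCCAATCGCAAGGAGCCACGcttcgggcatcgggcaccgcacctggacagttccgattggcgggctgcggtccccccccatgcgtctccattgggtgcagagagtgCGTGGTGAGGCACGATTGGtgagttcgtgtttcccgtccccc
Dnajc3 promoter (chr14:118937802-118937870, plus strand): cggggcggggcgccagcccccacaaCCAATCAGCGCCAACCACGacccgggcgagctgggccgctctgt

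The other motifs were rare in these genes. The UPR element TGACGTGG occurred in the window of Dnajc25, and in 0.676% of all windows. The cyclic AMP response element TGACGTCA occurred in Dnajc27 (1.79% of all windows), the AP-1 site TGANTCA in Hspa5 (7.81%), the EGR site GCGTGGGCG in Dnaja1 and Dnajc17 (0.612%), and the serum response element in Dnajc5g (1.54%). The NF-kB site occurred in 0 of the 58 genes (0.155% of all windows). A match is a run of letters and not a measured binding site.

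To ask how luteolin changed chaperone messages in stimulated mast cells, BSA + luteolin was compared with BSA by edgeR's quasi-likelihood test, with Benjamini-Hochberg adjustment over all 11560 genes tested and a threshold of 0.05. Of the 55 chaperone genes, 17 were higher and 17 lower with luteolin, against 18.1% higher and 21.9% lower among all genes tested, so that 61.8% of the group passed the threshold against 40% of all genes. The large decreases were in 4 cytosolic genes and 1 ER gene. All 5 genes past a 2-fold change (Dnajb1, Hspa1b, Dnajb4, Dnajb9 and Hspa4l) were lower, and 5.61% of all genes were past 2-fold in either direction. The increases were smaller, with log2 fold changes from 0.16 (Dnajc3) to 0.51 (Dnajc15). Cytosolic genes were 5 higher and 11 lower of 27, ER genes 6 higher and 2 lower of 14, and mitochondrial genes 6 higher and 1 lower of 9. The median log2 fold change was -0.07 in cytosolic, 0.13 in ER and 0.25 in mitochondrial genes, against 0.02 over all genes. Scaling by library size alone moved the median of all genes to 0.13 and the cytosolic median to 0.05, above 0, and gave 8 higher and 11 lower cytosolic, 6 and 2 ER, and 6 and 0 mitochondrial genes. Relative to the median of all genes, the cytosolic median stood at -0.08 under either scaling. With all 9 libraries in 1 fit, 10 of these genes passed the threshold and all 10 were lower (Dnajb1, Dnajb4, Dnajb9, Hspa1b, Hspa4l, Dnaja1, Dnaja4, Dnajb2, Dnajb6 and Hspa8), against 9.46% of all genes in that fit, and 34 passed when the BSA and BSA + luteolin libraries were fitted alone.

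**Figure D1:**
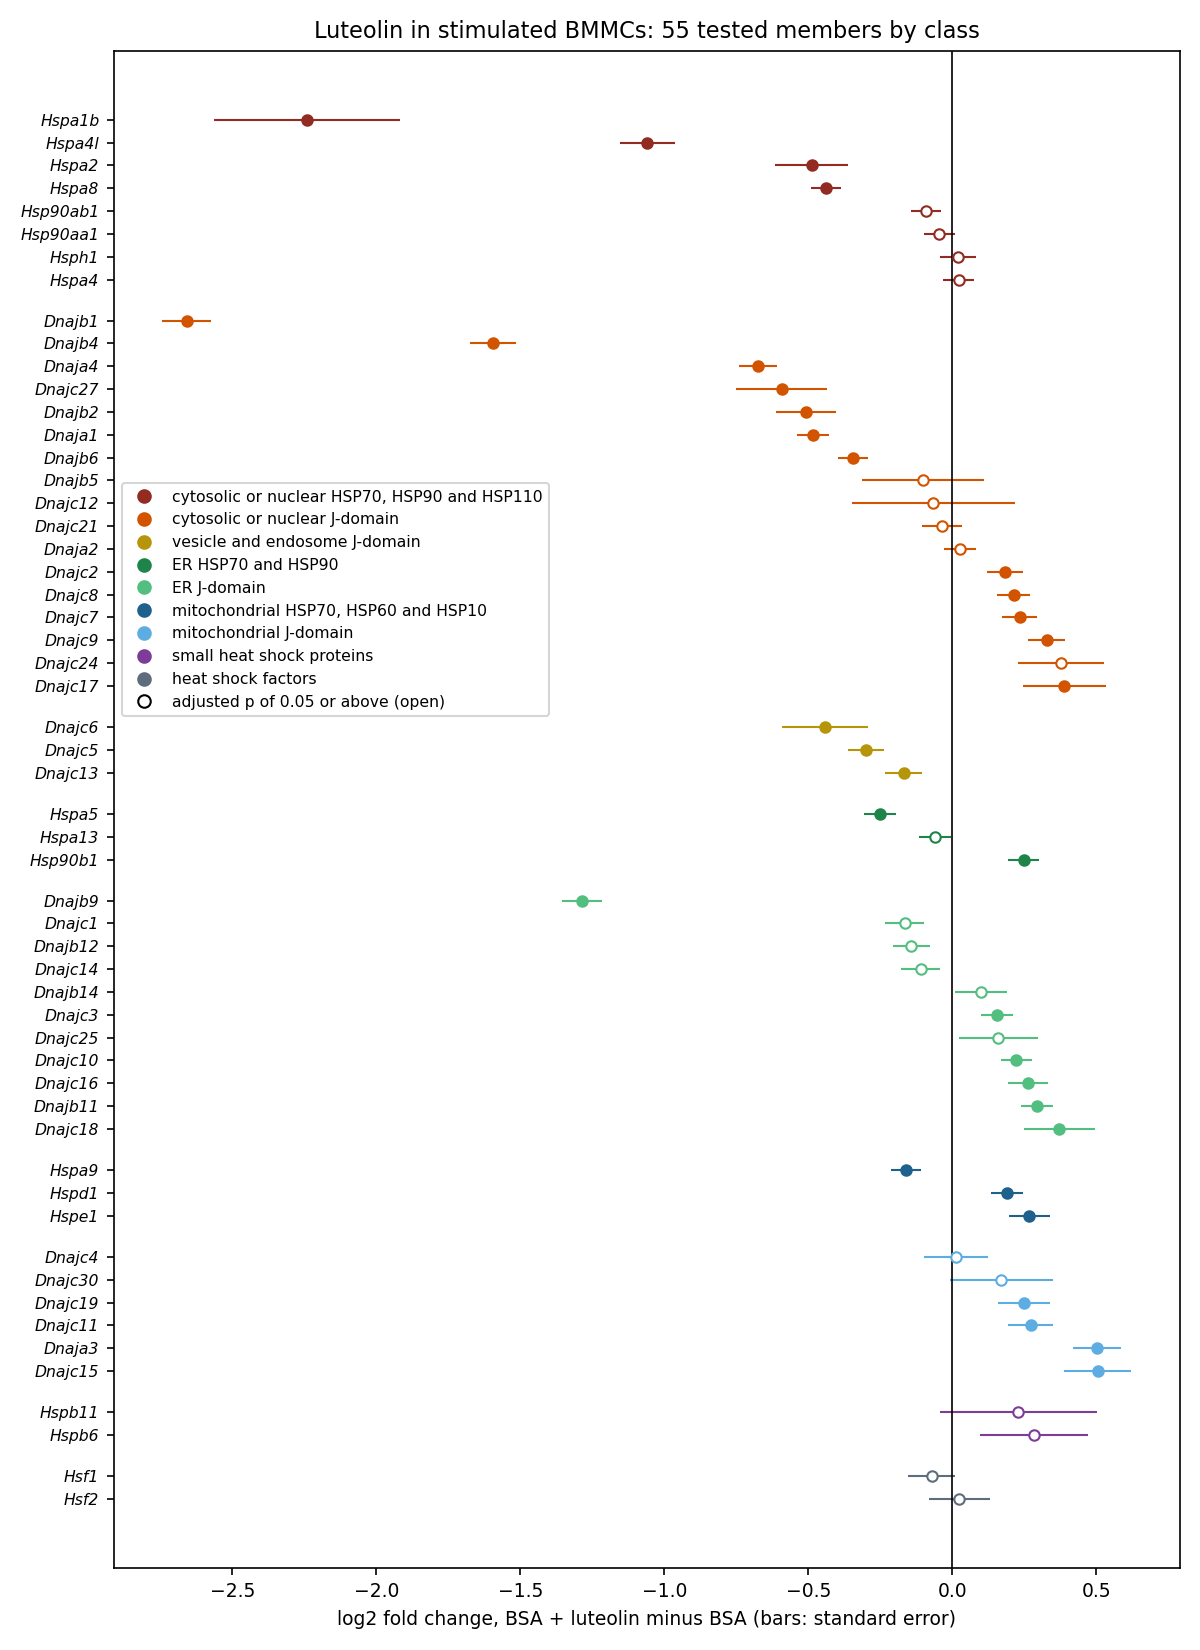
Log2 fold change of BSA + luteolin minus BSA (horizontal axis) for each of the 55 tested genes (rows), grouped by compartment and class, with bars for the standard error. Filled points passed an adjusted p of 0.05 in edgeR's test. The 5 genes beyond a 2-fold change lie on the left, led by Dnajb1 at -2.66, and the filled mitochondrial J-domain genes all lie to the right of 0.

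The cytosolic and nuclear J-domain genes held both the lowest fold changes and a set of small increases. Dnajb1 (HSP40), the main stress-inducible partner of cytosolic HSP70 (chromosome 8, 83608193 to 83612653), was at 111.5, 122.7 and 126.1 CPM in Control, 622.1, 689.5 and 549 CPM in BSA, and 90.86, 94.73 and 108.7 CPM in BSA + luteolin. The BSA libraries lay far above both other groups, and each luteolin library lay below each Control library. With luteolin Dnajb1 fell by 2.66 on the log2 scale (standard error 0.08, adjusted p = 1.2e-13, edgeR's quasi-likelihood test), a 6.31-fold decrease. Per exon length it made up 36% to 40.66% of the cytosolic J-domain messages in BSA, 10.35% to 12.97% in Control and 8.27% to 10.3% in BSA + luteolin. Dnajb4, a close relative of Dnajb1, was at 25, 35.03 and 32.29 CPM in Control, 44.61, 44.52 and 44.85 CPM in BSA, and 14.71, 14.4 and 15.2 CPM in BSA + luteolin, and the 3 groups did not overlap. It fell by 1.59 on the log2 scale (standard error 0.08, edgeR's adjusted p = 4.57e-11).

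Among the other cytosolic J-domain genes, Dnaja4 fell by 0.67 on the log2 scale (from 115.2 ± 6.02 to 72.1 ± 5.24 CPM, SD, n = 3, edgeR's adjusted p = 4.68e-07). Dnaja1, a general partner of Hspa8 in folding and protein import, was at 202.7, 189.8 and 191.5 CPM in BSA and at 137.8, 143 and 135.6 CPM with luteolin. It fell by 0.48 on the log2 scale (standard error 0.06, edgeR's adjusted p = 2.91e-06). Dnaja2, the related class A gene, did not move with it: it was at 179.4 ± 7.38 CPM in BSA and 182.3 ± 4.92 with luteolin (log2 fold change 0.03, edgeR's adjusted p = 0.742). Dnajb2, a J-domain protein with ubiquitin-binding motifs, fell by 0.51, Dnajc27, a Rab-like GTPase with a J domain, fell by 0.59, and Dnajb6, which holds back aggregation, fell by 0.34 on the log2 scale. Dnaja4 shares exon bases with the antisense gene Wdr61 and Dnaja1 with Smu1, and the strand setting of the counting is not given in the sources used here.

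The cytosolic and nuclear J-domain genes that rose were of class C, which share only the J domain with the bacterial DnaJ. They were Dnajc17 (log2 fold change 0.39) and Dnajc8 (0.21), both tied to splicing, Dnajc9 (0.33), a histone chaperone, Dnajc7 (0.23), which binds HSP70 and HSP90, and Dnajc2 (0.18), a chaperone at the ribosome. Dnajc17 passed the threshold in 8 of 15 alternatives, the call of Dnajc2 was lost in 5 of them, and that of Dnajc8 was lost with the gene length correction, with all 9 libraries in 1 fit and without BSA replicate 1. Dnajc9 went from 80.96 ± 2.99 CPM in BSA to 101.3 ± 6.04 with luteolin (SD, n = 3, edgeR's adjusted p = 0.00064). Over all compartments, class C genes were 12 higher and 4 lower of 24 tested, and class B genes, the group of Dnajb1, 1 higher and 5 lower of 9, against 18.1% higher and 21.9% lower among all genes, and the difference between the classes was not tested. The higher class B gene was the ER gene Dnajb11.

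**Figure D2:**
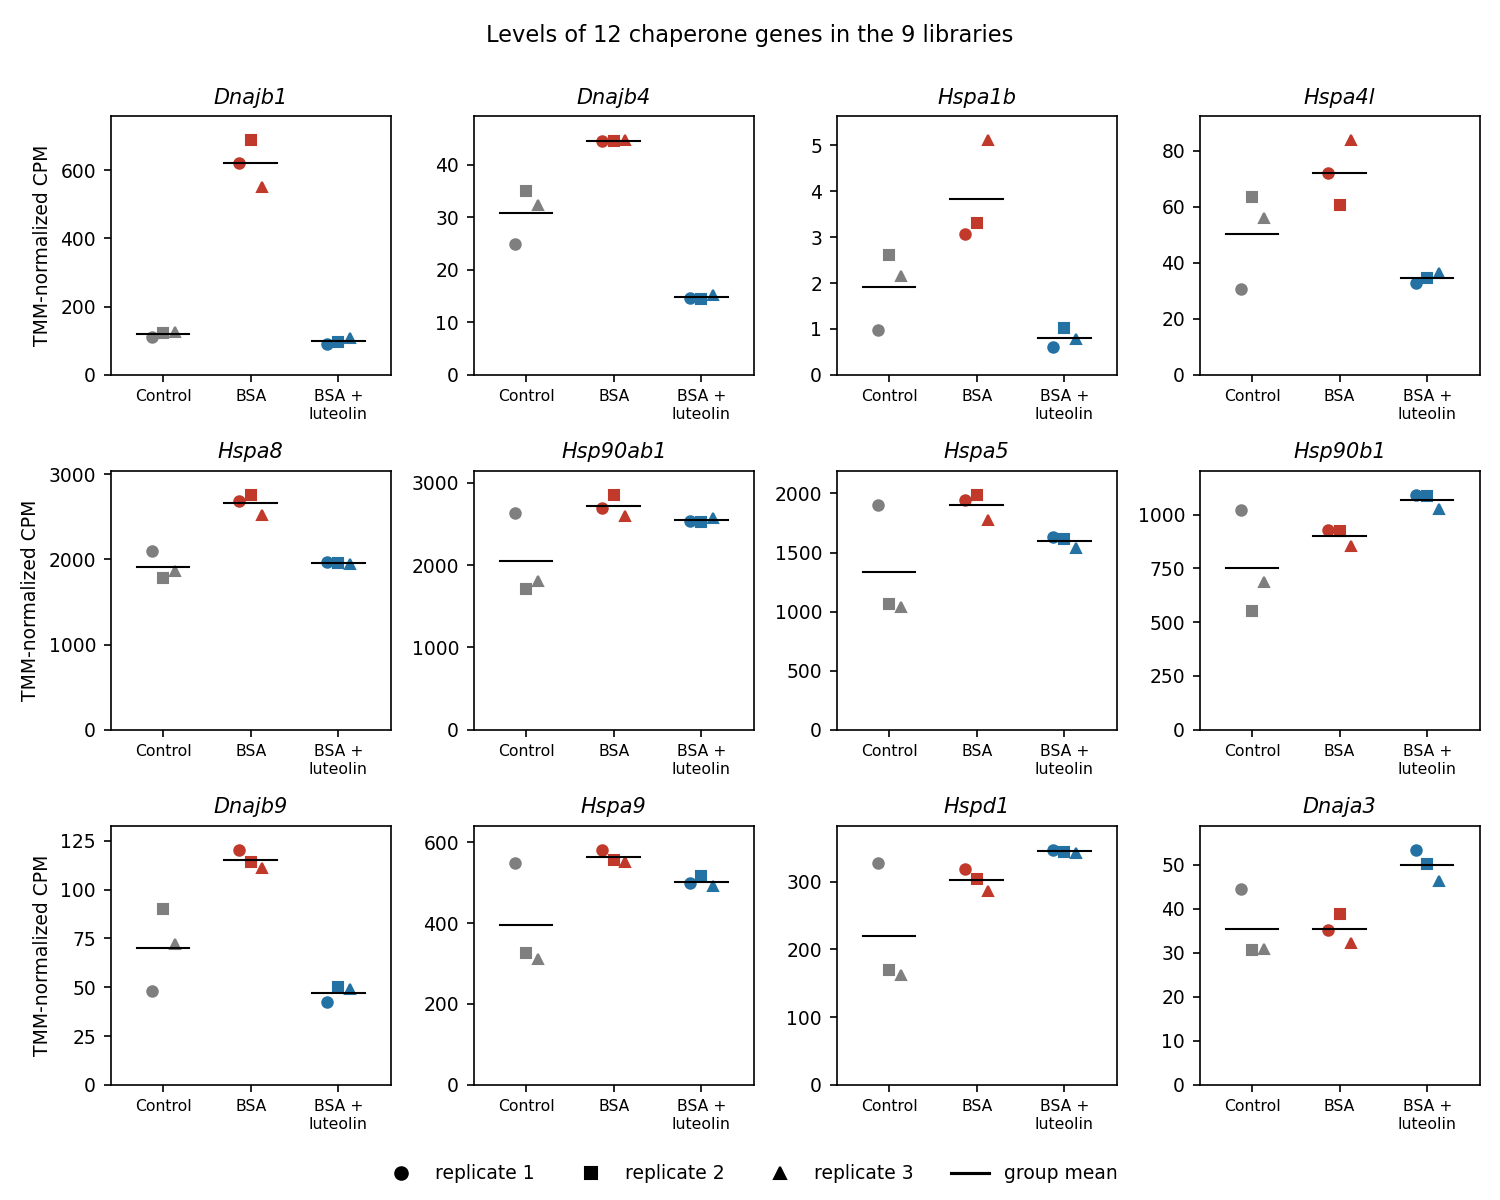
TMM-normalized CPM (vertical axes, each from 0) of 12 genes in the 9 libraries, with the 3 groups side by side, 1 marker shape per replicate number and a line at the group mean. Dnajb1 stands at 549 CPM or more in the 3 BSA libraries and at 126.1 or less in the other 6. In panels such as Hspa5, Hspa9 and Hspd1 the circle of Control replicate 1 lies among the stimulated libraries.

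Cytosolic HSP70 messages fell with luteolin while the HSP90 messages did not pass the threshold, except Hsp90ab1 after a gene length correction (log2 fold change -0.18). Hspa8, the constitutive HSP70, was at 2097, 1780 and 1863 CPM in Control, 2686, 2762 and 2526 in BSA, and 1973, 1956 and 1943 in BSA + luteolin. The luteolin libraries fell within the range of the Control libraries and below all BSA libraries, with a log2 fold change of -0.44 (standard error 0.05, edgeR's adjusted p = 4.24e-06). Hspa1b, a heat-inducible HSP70, was low: 20, 27 and 52 counts in Control, 68, 66 and 105 in BSA, and 13, 25 and 16 in BSA + luteolin. It fell by 2.24 on the log2 scale (standard error 0.32, edgeR's adjusted p = 4.05e-05). Its near-identical copy Hspa1a had 1, 3 and 7 counts in Control, 39, 26 and 25 in BSA, and 0, 5 and 2 with luteolin, and reads may be split between them or lost. Hspa1a lay below the filter, and without a filter edgeR's adjusted p for luteolin against BSA was 8.07e-08. With both genes' counts summed, the log2 fold change was -2.53 (edgeR's adjusted p = 3.13e-06).

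Hspa4l, an HSP110 family gene, was at 72.01, 60.4 and 83.93 CPM in BSA and at 32.68, 34.59 and 36.36 with luteolin. It fell by 1.06 on the log2 scale (standard error 0.10, edgeR's adjusted p = 1.78e-07). In Control it was at 30.61 CPM in replicate 1 and at 63.55 and 56.07 in the others. Its relatives Hspa4 (log2 fold change 0.02) and Hsph1 (0.02) did not pass the threshold, nor did Hsp90aa1 (-0.04) and Hsp90ab1 (-0.09), of which the last pair turned positive under library size alone. Hspa2, an HSP70 best known from the testis, went from 16.59 ± 2.64 to 11.81 ± 0.589 CPM (log2 fold change -0.49, edgeR's adjusted p = 0.00581). The J-domain genes of vesicles fell by less. Dnajc5 (cysteine string protein), which keeps proteins of exocytosis folded, had a log2 fold change of -0.30, from 128.5, 133.5 and 146.9 CPM in BSA to 109.7, 107.1 and 114.9 CPM with luteolin. The clathrin-uncoating factor Dnajc6 (-0.44) and the endosomal Dnajc13 (-0.17) were also lower, so that 3 of 3 tested fell, against 21.9% lower among all genes. Of 15 alternatives, the call was lost in 1 for Dnajc5, 7 for Dnajc6 and 12 for Dnajc13, with all 3 lost when all 9 libraries were in 1 fit, and Dnajc13 changed sign with the gene length correction.

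In the ER, luteolin moved the 2 abundant chaperones in opposite directions. Hspa5 (BiP, chromosome 2, 34771970 to 34777547) was at 1941, 1991 and 1775 CPM in BSA and at 1631, 1613 and 1539 with luteolin. It fell by 0.25 on the log2 scale (standard error 0.06, edgeR's adjusted p = 0.00201). Hsp90b1 was at 926.5, 924.1 and 854.6 CPM in BSA and at 1093, 1086 and 1025 with luteolin. It rose by 0.25 on the log2 scale (standard error 0.05, edgeR's adjusted p = 0.00195). The groups overlapped in neither gene, and the ratio of Hspa5 to Hsp90b1 per exon length, which needs no scaling between libraries, was 1.98 to 2.05 in BSA and 1.42 to 1.43 with luteolin. Both calls were lost with all 9 libraries in 1 fit, where edgeR's adjusted p was 0.472 for Hspa5 and 0.443 for Hsp90b1.

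Dnajb9 (ERdj4), a BiP partner that holds the stress sensor IRE1 in check, was the ER gene with the largest fall. It was at 120.6, 114.2 and 111.1 CPM in BSA, at 42.53, 49.96 and 48.86 with luteolin, and at 48.16, 90.04 and 72.18 in Control, where replicate 1 lay within the luteolin range. Luteolin thus lowered it, with a log2 fold change of -1.29 (standard error 0.07, edgeR's adjusted p = 1.38e-10). The other ER J-domain genes past the threshold rose: Dnajc18 (log2 fold change 0.37), Dnajb11 (0.29), Dnajc16 (0.26), Dnajc10 (ERdj5, a reductase, 0.22) and Dnajc3 (0.16), an inhibitor of eIF2α kinases. The call was lost in 5 of 15 alternatives for Dnajc18 and for Dnajc3, and in 1 for each of the others. Dnajb11 (ERdj3), the abundant BiP partner for nascent proteins, went from 243.5, 256.3 and 238.7 CPM to 313.8, 302.2 and 287 CPM (standard error 0.06, edgeR's adjusted p = 0.000651). Dnajb9 to Dnajb11 was thus 0.595 ± 0.0317 per exon length in BSA and 0.199 ± 0.0238 with luteolin (SD, n = 3). Hspa13, Dnajb12, Dnajb14, Dnajc1, Dnajc14 and Dnajc25 did not pass, and lay between -0.17 and 0.16 on the log2 scale.

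In mitochondria the chaperonin and most J-domain genes were modestly higher with luteolin and the HSP70 gene lower. Hspd1 (HSP60) was at 318, 303.5 and 286.3 CPM in BSA and at 347.2, 343.7 and 342.7 with luteolin (log2 fold change 0.19, standard error 0.06, edgeR's adjusted p = 0.0117). Its partner Hspe1 (HSP10) went from 90.35, 97.91 and 79.97 to 108.8, 112 and 101.3 CPM (log2 fold change 0.27, edgeR's adjusted p = 0.00778). These divergent neighbours overlap at their first exons on opposite strands. Both rises fell short of the threshold after a correction for gene length, at 0.08 for Hspd1 and 0.11 for Hspe1.

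Hspa9, the HSP70 that pulls precursor proteins into the matrix, was at 582.3, 555.6 and 552.4 CPM in BSA and at 500.2, 515.7 and 492.3 with luteolin (log2 fold change -0.16, edgeR's adjusted p = 0.0209). That call was lost under library size alone, upper-quartile factors and 4 other alternatives, so it was the least stable of the 3. Dnaja3 (Tid1), the J-domain partner of Hspa9, rose from 35.1, 38.86 and 32.24 to 53.51, 50.32 and 46.24 CPM (log2 fold change 0.50, standard error 0.08, edgeR's adjusted p = 0.000185). Dnajc15 (0.51) and Dnajc19 (0.25), which belong to the protein import motor or its relatives, and Dnajc11 (0.27), of the cristae-organizing complex, rose as well, while Dnajc4 (0.01) and Dnajc30 (0.17) did not pass the threshold. Of the 15 alternatives, the call was lost in 7 for Dnajc19, 3 for Dnajc11 and 1 each for Dnaja3 and Dnajc15. The ratio of Hspa9 to Hspd1 per exon length was 1.12 to 1.18 in BSA and 0.881 to 0.92 with luteolin, and did not overlap.

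The heat shock factors and small heat shock proteins did not pass the threshold with luteolin. Hsf1, the main regulator of the heat shock response, was at 41.09 ± 1.1 CPM in BSA and 38.98 ± 3.69 with luteolin, and Hsf2 at 14.28 ± 0.0981 and 14.49 ± 0.85 CPM (SD, n = 3). Their log2 fold changes were -0.07 (edgeR's adjusted p = 0.496) and 0.02 (0.875), and that of Hsf1 turned positive under library size alone and upper-quartile factors. Of the Hspb genes, classed here as small heat shock proteins by symbol alone, Hspb6 and Hspb11 were tested, with log2 fold changes of 0.28 and 0.23. Hspb1, the main stress-inducible member, had 0 to 5 counts per library. Messages for small heat shock proteins were therefore scarce in all groups, at 8.15 ± 0.941 CPM in Control, 7.15 ± 0.509 in BSA and 8.36 ± 0.32 in BSA + luteolin over all 8 genes.

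To ask which chaperone messages stimulation itself changed, BSA was compared with Control. Dnajb1 was the single gene of the 55 past the threshold, against 3.27% of all genes tested. It rose by 2.37 on the log2 scale (standard error 0.13, edgeR's adjusted p = 0.000201), a 5.16-fold increase, and by 2.27 without Control replicate 1. Hspa1a, a gene of few counts below the filter, passed without a filter (log2 fold change 2.84, edgeR's adjusted p = 0.0123). So did Dnajb9 and Dnajc6, against 2.74% of all genes in that fit. Hspa1b did not pass (1.04, edgeR's adjusted p = 0.206), nor did the summed Hspa1a and Hspa1b counts (1.34, 0.11). For 15 genes all BSA libraries lay above all Control libraries and for 4 all lay below, against 16.6% and 12.1% of all genes. Dnajb9 (log2 fold change 0.72, edgeR's adjusted p = 0.115), Dnajb4 (0.54, 0.0907), Hspa8 (0.47, 0.0822) and Hspa13 (0.42, 0.0648) were among those with BSA above Control, yet they did not pass the threshold in edgeR's fit of these 6 libraries with the filter. All 4 passed with DESeq2 on the same libraries, where 10.6% of all genes were called. With all 9 libraries in 1 fit, 10 genes were higher, among them these 4, Hsp90aa1, Hsf2, Dnajb6, Dnajc6 and Dnajc21, against 9.56% of all genes called in that fit.

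Without Control replicate 1, 24 of the 55 genes were higher in BSA and 1, Dnajc18, was lower, against 22.6% and 22.4% of all genes. The share past the threshold was that of all genes (45.5% against 45%), but nearly all differences were toward higher levels in BSA. That fit sets BSA against Control replicates 2 and 3 alone. Their neutrophil markers summed to 7.08 and 5.33 CPM, against 184 CPM or more in all other libraries. Stimulation and this difference between the libraries cannot be told apart. All 3 ER HSP70 and HSP90 genes, all 3 mitochondrial HSP genes, both heat shock factors, and 4 of 8 cytosolic HSP genes (Hspa8, Hsp90aa1, Hsp90ab1 and Hsph1) were higher in BSA. Hspa5 was at 1906, 1064 and 1035 CPM in Control, so that replicate 1 lay among the BSA libraries and the others far below them. Its log2 fold change was 0.51 with all Control libraries (edgeR's adjusted p = 0.304) and 0.81 without replicate 1 (1.31e-06). Hspd1 was at 327.9, 169.9 and 161.5 CPM in Control, and its log2 fold change was 0.45 (edgeR's adjusted p = 0.406) and 0.82 (9.38e-07). Hspa9 was at 548.1, 325.6 and 311.6 CPM in Control, with 0.51 (edgeR's adjusted p = 0.262) and 0.77 (9.64e-07). In these genes the result of the comparison rested on whether Control replicate 1 was included, and in Dnajb1 it did not.

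**Figure D3:**
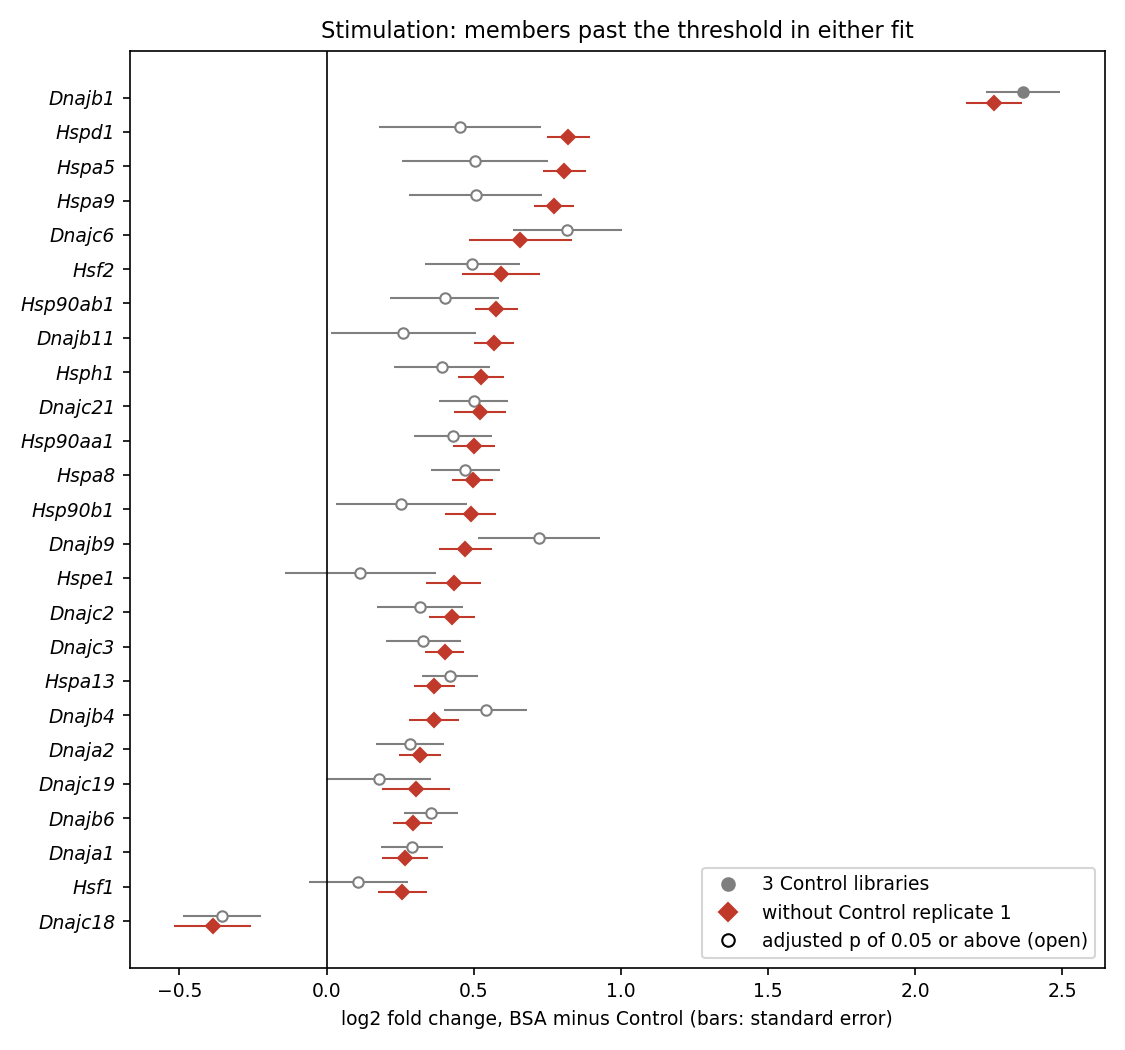
Log2 fold change of BSA minus Control (horizontal axis, bars for the standard error) for the 25 genes past the threshold in either fit, with all 3 Control libraries (gray circles) and without Control replicate 1 (red diamonds), open where the adjusted p was 0.05 or above. Dnajb1 is filled in both fits, at 2.37 and 2.27, and the other 24 genes are filled only without Control replicate 1.

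BSA + luteolin was also compared with Control, to see where chaperone levels ended relative to untreated cells. This comparison shares its libraries with the 2 above. Dnajb4 was the single gene past the threshold, against 3.04% of all genes tested, and it was lower with luteolin than in Control by 1.06 on the log2 scale (standard error 0.16, edgeR's adjusted p = 0.0192). The call was lost when any library other than Control replicate 1 was left out, where 2 to 47 genes of the whole table were called in place of 351, and the log2 fold change was -1.19 without Control replicate 1 (edgeR's adjusted p = 5.52e-08). Over the 15 alternatives it ranged from -1.19 to -0.96. Dnajb1 lay below Control in all luteolin libraries, with a log2 fold change of -0.30 (edgeR's adjusted p = 0.189) and -0.35 without Control replicate 1 (0.00105).

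Without Control replicate 1, 26 genes were higher and 12 lower in BSA + luteolin than in Control, against 29.9% higher and 30.1% lower among all genes (60% in either direction). The 7 called mitochondrial genes and the 3 ER HSP70 and HSP90 genes were all higher. Hspd1 differed by 1.05 on the log2 scale (edgeR's adjusted p = 1.89e-09) and Dnajb11 by 0.90 (1.88e-08). The lower genes were Hspa1b (-1.54), Dnajb4 (-1.19), Hspa4l (-0.79), Dnajb9 (-0.78), Hspa2 (-0.72), Dnaja4 (-0.69), Dnajb2 (-0.54), Dnajc27 (-0.49), Dnajc5 (-0.43), Dnajb1 (-0.35), Dnajc1 (-0.28) and Dnaja1 (-0.18). With Control replicate 1 included, Dnajb4 alone of these 12 passed edgeR's test of these 2 groups, while Dnajb2 also passed with DESeq2 and with all 9 libraries in 1 fit, and Hspa2 with DESeq2.

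The levels were also summed over the genes of each compartment, and these sums were not tested. Cytosolic genes summed to 7331, 5780 and 5969 CPM in Control, 8323 to 9053 in BSA and 7116 to 7223 in BSA + luteolin. ER genes summed to 3865, 2470 and 2550 CPM in Control, 3662 to 3946 in BSA and 3608 to 3767 in BSA + luteolin. Mitochondrial genes summed to 1155, 681.8 and 652.4 CPM in Control, 1045 to 1128 in BSA and 1102 to 1145 in BSA + luteolin. The cytosolic sum was lower with luteolin than with BSA in every library. The ER and mitochondrial sums of the BSA and BSA + luteolin groups overlapped in TMM-scaled CPM, but not as percent of all counts. By that measure ER genes took 0.3435% to 0.3657% in BSA and 0.3702% to 0.378% with luteolin. Mitochondrial genes took 0.09803% to 0.1054% and 0.1131% to 0.1147%, so that this contrast depended on the scaling. In all 3 compartments the sum of Control replicate 1 lay above those of all BSA + luteolin libraries, and the sums of Control replicates 2 and 3 lay below them.

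**Figure D4:**
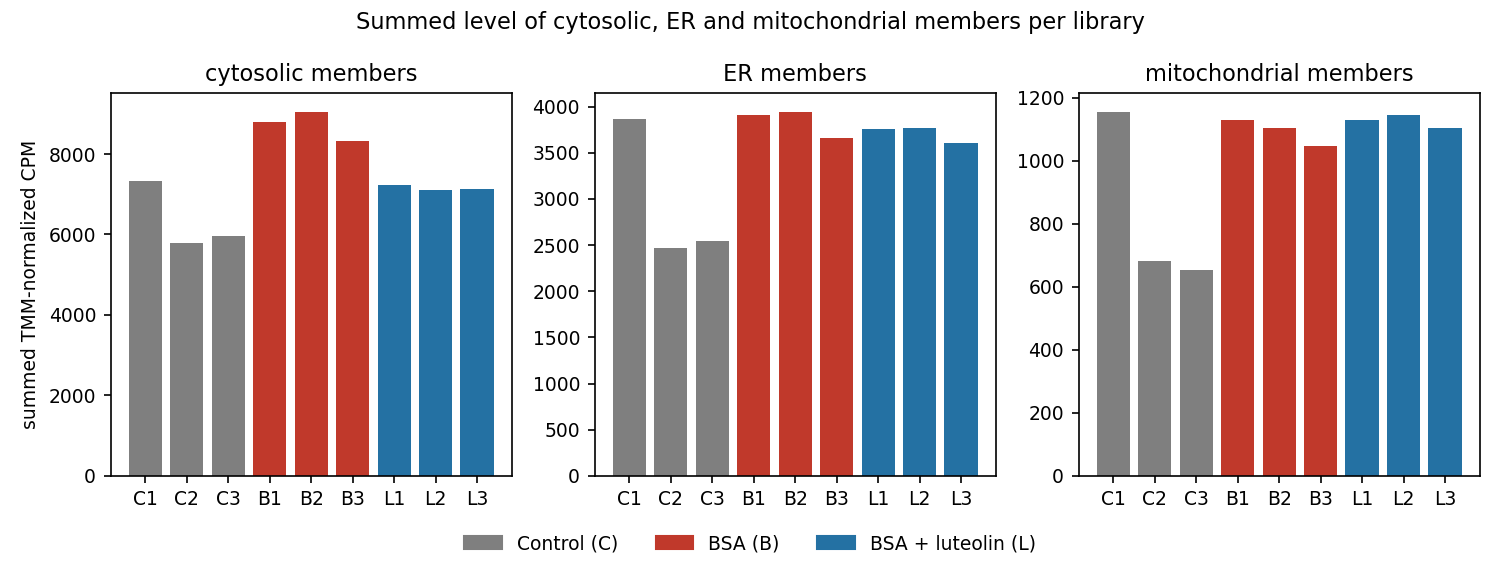
Summed TMM-normalized CPM (vertical axes from 0, a scale of its own in each panel) of the cytosolic, ER and mitochondrial genes in each library, with bars C1 to C3 for Control, B1 to B3 for BSA and L1 to L3 for BSA + luteolin. The cytosolic bars of BSA, 8323 to 9053 CPM, exceed all others, and in the ER and mitochondrial panels C2 and C3 are the lowest bars.

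Other folding genes were counted from 4 lists. Between BSA + luteolin and BSA, 10 of 25 cochaperones of cytosolic HSP70 and HSP90 were higher and 2 lower (median log2 fold change 0.16), against 18.1% higher and 21.9% lower among all genes tested. The lower pair was Unc45a (-0.50), a myosin chaperone, and Bag3 (-0.49), a stress-inducible partner of HSP70, and the highest were Bag4 (0.43) and Ttc4 (0.34). Of the cytosolic chaperonin TRiC and prefoldin, 6 of 14 were higher and all 14 log2 fold changes were positive (median 0.16), led by Pfdn6 (0.46) and Pfdn1 (0.41). Of the mitochondrial folding genes, 4 of 13 were higher and the other 9 did not pass the threshold (median 0.20), with Hscb (0.47), of iron-sulfur cluster assembly, and the unfoldase Clpx (0.32) highest.

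Of 25 genes tested from the list of ER folding and the unfolded protein response, 11 were higher and 6 lower (median log2 fold change 0.15), against 18.1% higher and 21.9% lower among all genes, so that the lower share was near that of all genes. The 6 lower genes were Ddit3 (CHOP), Ern1 (IRE1), Herpud1, Ero1l, Xbp1 and Syvn1, and the highest were the disulfide isomerase Pdia3 (0.34) and Sil1 (0.30), a nucleotide exchange factor of BiP. Genes of like role did not all move one way, since the degradation genes Sel1l (0.22) and Derl2 (0.29) were higher while Herpud1 and Syvn1 were lower, and the sensors Atf6 (0.01) and Eif2ak3 (0.21) did not pass the threshold. Ddit3 went from 72.71 ± 3.37 to 9.95 ± 0.516 CPM (SD, n = 3), a log2 fold change of -2.87 (edgeR's adjusted p = 2.92e-14), and Ern1 had a log2 fold change of -1.02. In BSA against Control, Ero1l, the oxidase of disulfide formation, was the 1 gene of the 4 lists past the threshold (log2 fold change 1.01, edgeR's adjusted p = 0.0068), against 3.27% of all genes. In BSA + luteolin against Control, where 3.04% of all genes passed, Ddit3 (-2.73) and Xbp1 (-0.47) were lower and Chordc1 (0.47), an HSP90 partner, was higher. Without Control replicate 1 far more of these genes passed. In BSA against Control, where 22.6% of all genes were higher and 22.4% lower, 13 cytosolic cochaperones were higher and 2 lower of 25, TRiC and prefoldin genes were 8 and 1 of 14, ER genes 14 and 1 of 25, and mitochondrial genes 7 and 1 of 13. In BSA + luteolin against Control, where 29.9% of all genes were higher and 30.1% lower, the same lists had 15 higher and 2 lower, 11 and 1, 19 and 4, and 10 and 0.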

How the data were processed

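RNA from 9 BMMC libraries was measured by the authors with the TruSeq Stranded mRNA kit on an Illumina NovaSeq, and reads were cleaned with HTStream and aligned with STAR 2.7.0f to mm10, per the labels and the study's methods. The deposited values are unnormalized read counts for each Ensembl gene identifier, and 24256 rows are at 0 in all libraries. The annotation release, the strand setting and the treatment of multi-mapping reads are not given in the sources used here. Libraries were grouped by their labels. Gene symbols, exon lengths and coordinates are from GENCODE M21 on GRCm38, which matched 47224 of 47643 rows, and promoters from RefSeq.

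Genes with a median CPM above 1 over the 9 libraries were tested in R 4.3.3 with edgeR 4.0.16 (quasi-likelihood test, TMM factors, two-sided, Benjamini-Hochberg adjustment, threshold 0.05), separately on the 6 libraries of each comparison. The study's methods name limma, tried here as an alternative. Standard errors come from the F statistic. Means are ± SD. Scripts were tested on simulated data. The alternatives were DESeq2 1.42.0, limma 3.58.1, 2 other scalings, 2 other filters, all libraries in 1 fit, the replicate number as a block, a gene length correction, summed Hspa1a and Hspa1b counts, and each replicate left out. No replicates held the same library (lowest chi-square per degree of freedom 4.05).

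The members, compartments, lists and tests were chosen with earlier results of these data known. Named with values were 21 classical chaperone genes and factors, up to 5 lowest and 5 highest fold changes past the threshold per comparison, and up to 3 genes of highest level per compartment. Further genes were named after their values were seen, wherever a class is described gene by gene. From the 4 lists, the 2 lowest and 2 highest past the threshold were named, and others after their values were seen. The symbol Hspa14 matched no row and is not analysed here. The 12 named pseudogenes of the family were below the filter.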

Additional observations from a re-analysis of the deposited data

How the results depend on the processing

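The number of chaperone genes past the threshold in BSA against Control was 1, against 3.27% of all genes. It was 8 with DESeq2 (10.6% of all genes), 4 without a filter on low counts (2.74%), 10 with all 9 libraries in 1 fit (9.56%) and 4 with a gene length correction (4.34%). Leaving out each replicate in turn gave 1 to 25, with 25 when Control replicate 1 was left out (45% of all genes) and 1 otherwise (0.779% to 1.19%). In BSA + luteolin against BSA it was 34 (40% of all genes), and it was 10 with all 9 libraries in 1 fit (9.46%). It was 31 to 36 under the other settings (22.4% to 48.6%), and 24 to 33 with each replicate left out (28% to 44%). In BSA + luteolin against Control it was 1 (3.04% of all genes), 8 with DESeq2 (11.9%), 9 with all 9 libraries in 1 fit (10.8%) and 2 with a gene length correction (5.4%). With each replicate left out it was 0 to 38 by the same edgeR test. It was 38 without Control replicate 1 (60% of all genes) and 0 without any other library (0.0173% to 0.407%). Dnajb1 kept its call against Control, and Dnajb1, Dnajb4, Dnajb9, Hspa1b, Hspa4l and Hspa8 kept theirs against BSA, under every alternative run. Of the 34 genes called against BSA, 0 changed sign under any alternative but the length correction, where Dnajc13 did.

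Of the genes tested, 0 to 14 log2 fold changes took the other sign under a setting in BSA against Control, 0 to 8 in BSA + luteolin against BSA and 0 to 6 in BSA + luteolin against Control. With 1 library left out it was 2 to 13, 1 to 3 and 2 to 6. Apart from Dnajc13 with the length correction, none of these was called in the reported fit or in the alternative. Values are given for the genes named by the rule alone. In BSA against Control these were with the length correction Dnaja3 (0.0224), Dnajc9 (0.0448), and with library size alone Hsf1 (-0.0574), Hspa4 (-0.0897), Hspe1 (-0.0444), and with limma Dnaja3 (0.0197), and without a filter Dnaja3 (0.0385), Dnajc9 (0.0286), and with upper-quartile factors Hspa4 (-0.0207). In BSA + luteolin against BSA they were with the length correction Hsf1 (0.0042), and with library size alone Hsf1 (0.0391), Hsp90aa1 (0.0678), Hsp90ab1 (0.0231), and with upper-quartile factors Hsf1 (0.0042), Hsp90aa1 (0.0316). In BSA + luteolin against Control they were with library size alone Hsf1 (-0.019), Hspa8 (-0.0266), Dnajc18 (-0.0435), and with limma Dnajc17 (0.0022), and without a filter Dnajc17 (0.0171), and with upper-quartile factors Dnajc18 (-0.0091). With each replicate left out in turn, the ranges of the named genes that crossed 0 were in BSA against Control Hspe1 -0.0709 to 0.432, Dnaja3 -0.102 to 0.155, Dnajc9 -0.0863 to 0.0715, Dnajc15 -0.33 to 0.0271, and in BSA + luteolin against BSA Hsf2 -0.008 to 0.0696, Hsph1 -0.0269 to 0.0481, Hspa4 -0.0145 to 0.0417, and in BSA + luteolin against Control Hsf1 -0.0535 to 0.222, Hspa8 -0.0159 to 0.0948, Dnajc18 -0.0629 to 0.106, Dnajc17 -0.167 to 0.234. The cause of these changes was not tested.

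Whether the replicate numbers pair the libraries was not settled. Correlations of same-numbered libraries ranged from -0.255 to 0.307. In BSA + luteolin against BSA their mean was 0.145, against -0.0727 for libraries of other numbers. In the fit with a replicate block, 1, 36 and 1 chaperone genes were called, against 1.25%, 48.3% and 1.83% of all genes. There the named gene Dnaja3 in BSA against Control took the other sign (0.0166). In the same order of comparisons, 2, 4 and 3 of the 6 libraries correlated best with their own number. For the named genes, 330, 328 and 331 further values kept direction and call in BSA against Control, BSA + luteolin against BSA and BSA + luteolin against Control, 28, 2 and 25 gained a call, and 0, 36 and 5 lost it. The low depth of Control replicate 2, and only 3 libraries in each group, limit what can be called among genes of few counts.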
